A study of Homo sapiens with 2 samples.

Results

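Serine, glycine and folate-bound single-carbon units are made by a short chain of enzymes in the cytosol and the mitochondrion. The mRNA levels of 9 of these enzymes were followed in HGC-27 cells, a human gastric carcinoma line, with and without knockdown of the RNA helicase DDX5. The members were taken by gene symbol, matched through their Entrez numbers, and all 9 were found among 16021 listed genes and gene models. They comprise the 3 enzymes of serine synthesis (PHGDH, PSAT1 and PSPH), 4 mitochondrial folate enzymes (SHMT2, MTHFD2, MTHFD1L and ALDH1L2) and 2 cytosolic ones (SHMT1 and MTHFD1). All 9 were above 0 in both libraries and passed the filter of a mean of 1 FPKM or more.

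The cells received lentivirus that carried either an shRNA against DDX5 or a non-targeting shRNA. Both cultures were put under puromycin at 48 h and harvested after 1 week of selection. RNA sequencing gave 1 library for each, with gene levels as FPKM, that is, fragments scaled to transcript length and to library depth. With 1 library per condition there is no replicate spread and no test, and each statement below compares these 2 libraries. The labels name neither the shRNA sequence nor a second shRNA.

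Cells make serine from the glycolytic intermediate 3-phosphoglycerate. PHGDH oxidises it, PSAT1 adds an amino group from glutamate, and PSPH removes the phosphate. Serine hydroxymethyltransferases then pass a carbon from serine to tetrahydrofolate, which leaves glycine. The reaction runs in mitochondria through SHMT2 and in the cytosol through SHMT1. In proliferating cells mitochondrial enzymes usually turn the carbon into formate, which the cytosol uses for purines, thymidylate and methyl groups. The transcription factor ATF4 is known to activate several of these genes, and MYC is known to act on SHMT2 and serine synthesis.

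DDX5 (Entrez gene 1655) had 50.78 FPKM in the DDX5 shRNA library and at 170.5 FPKM in the non-targeting library, 29.8% of the control level. Total FPKM was 594757 in the DDX5 shRNA library and 549129 in the non-targeting library, and steps between low values of short genes gave about 1.55e+07 counted fragments for the DDX5 shRNA library and 1.54e+07 for the non-targeting library. The labelled cell type was checked on marker genes. Of 7 gastric lineage markers, 3 were analysed here, none above 1.53 FPKM in the DDX5 shRNA library or 2.27 FPKM in the non-targeting library. The summed level of 7 analysed epithelial markers was 13.4 FPKM in the DDX5 shRNA library and 9.76 FPKM in the non-targeting library, with CDH1 at 0.07 FPKM with the DDX5 shRNA and 0.36 FPKM with the non-targeting shRNA. Of 8 fibroblast or mesenchymal markers, all were analysed, and they summed to 2750 FPKM in the DDX5 shRNA library and 2542 FPKM in the non-targeting library. Within that sum VIM was at 1270.59 FPKM with the DDX5 shRNA and 1583.62 FPKM with the non-targeting shRNA, whereas COL3A1, at 943.99 against 482.44 FPKM in the non-targeting library, and DCN, at 140.68 against 68.13 FPKM in the non-targeting library, were higher. COL1A1 had 260.5 FPKM with the DDX5 shRNA and 285.04 FPKM in the non-targeting library, and LUM 120.49 against 111.96 FPKM. The rest were low in the same order, with COL1A2 at 6.02 against 2.52, PDGFRA at 7.17 against 8.09 and PDGFRB at 0.28 against 0.56 FPKM. Part of the mesenchymal list was thus abundant and part was not, with little of the gastric or epithelial markers. The 4 leukocyte markers summed to 1.69 FPKM in the DDX5 shRNA library and 2.36 FPKM in the non-targeting library. In the DDX5 shRNA library CLDN7 was higher, at 9.84 FPKM against 2.36 FPKM in the non-targeting library, and KRT8 lower, at 1.31 FPKM against 5.24 FPKM in the non-targeting library, and the part of any of these markers in the results was not tested. In such bulk RNA, fewer cells of a type and less RNA per cell cannot be told apart.

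The 3 enzymes of serine synthesis and the 4 mitochondrial folate enzymes all had higher FPKM in the DDX5 shRNA library, though PSPH and MTHFD1L only slightly, and both cytosolic folate enzymes had lower FPKM. On the log2 scale of FPKM + 1, 4 of 9 members exceeded 2-fold upwards (PSAT1, ALDH1L2, MTHFD2 and PHGDH) and 0 did so downwards. Among all 11413 genes past the filter, 4.19% exceeded 2-fold upwards and 2.26% downwards. The members were chosen with earlier results of these data known, so these shares give scale only and test nothing. With both libraries at the same total FPKM, 376 of 11409 genes exceeded 2-fold upwards and 380 downwards, and of the members 3 and 0. SHMT2, with a log2 ratio of 0.9962, lay just inside the 2-fold line. SHMT2 is also the median of the 9 members, beside a median log2 ratio of 0.024 over all genes. Summed over the 9 members, FPKM was 2049 in the DDX5 shRNA library and 942.0 in the non-targeting library, or 0.344% of the total with the DDX5 shRNA and 0.172% with the non-targeting shRNA.

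**Figure D1:**
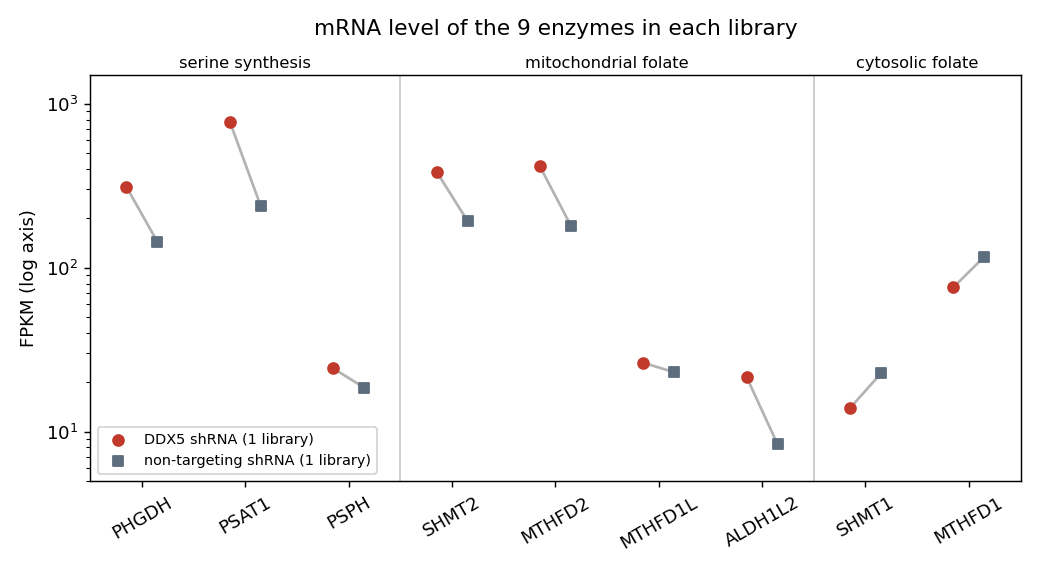
FPKM of the 9 enzymes on a log axis, with 1 point per library and a grey line joining the DDX5 shRNA library (red circles) to the non-targeting library (grey squares). PSAT1 is highest in both, at 776.49 FPKM with the DDX5 shRNA and 236.58 FPKM with the non-targeting shRNA, and the lines of SHMT1 and MTHFD1 slope the other way from those of the 7 other enzymes.

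PSAT1, the phosphoserine aminotransferase (Entrez gene 29968), had 776.49 FPKM in the DDX5 shRNA library and 236.58 FPKM in the non-targeting library, 3.28-fold higher, with a log2 ratio of 1.71. It had the highest level and the highest ratio of the 9. Its level ranked 104 in the DDX5 shRNA library and 290 in the non-targeting library among 11413 genes. Its ratio ranked 71 from the highest among the 8545 genes that averaged at least 5 FPKM.

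PHGDH, the dehydrogenase that commits 3-phosphoglycerate to serine (Entrez gene 26227), had 310.52 FPKM in the DDX5 shRNA library and 143.42 FPKM in the non-targeting library, 2.17-fold higher. Its log2 ratio was 1.11, and 0.9945 after both libraries were rescaled to the same total FPKM, which takes it inside the 2-fold line. PSPH, the phosphatase of the last step (Entrez gene 5723), had 24.31 FPKM in the DDX5 shRNA library and 18.54 FPKM in the non-targeting library, a log2 ratio of 0.37. The pathway was thus unevenly different, with the first steps further apart than the last. PSAT1 mRNA exceeded PSPH mRNA 31.9-fold in the DDX5 shRNA library and 12.8-fold in the non-targeting library.

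SHMT2, the mitochondrial hydroxymethyltransferase (Entrez gene 6472), had 385.2 FPKM in the DDX5 shRNA library and 192.61 FPKM in the non-targeting library. SHMT1, its cytosolic counterpart (Entrez gene 6470), had 13.91 FPKM in the DDX5 shRNA library and 22.66 FPKM in the non-targeting library, 61.4% of the control level, with a log2 ratio of -0.67. The isozymes of this reaction therefore stood apart in opposite directions. SHMT2 exceeded SHMT1 27.7-fold in the DDX5 shRNA library and 8.50-fold in the non-targeting library, so the ratio between the isozymes was 3.26 times as large with the DDX5 shRNA. This ratio compares genes within a library and does not depend on how the libraries are scaled.

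MTHFD2, the mitochondrial dehydrogenase and cyclohydrolase that makes formyl-tetrahydrofolate (Entrez gene 10797), had 414.82 FPKM in the DDX5 shRNA library and 180.21 FPKM in the non-targeting library, 2.30-fold higher. MTHFD1, the cytosolic enzyme that carries dehydrogenase, cyclohydrolase and synthetase activities in 1 protein (Entrez gene 4522), had 75.79 FPKM in the DDX5 shRNA library and 116.63 FPKM in the non-targeting library, 65.0% of the control level. MTHFD2 exceeded MTHFD1 5.47-fold in the DDX5 shRNA library and 1.55-fold in the non-targeting library. MTHFD2L, a mitochondrial isozyme of MTHFD2 outside the 9 members, was weakly expressed, at 2.47 FPKM in the DDX5 shRNA library and 1.97 FPKM in the non-targeting library.

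MTHFD1L, the mitochondrial synthetase that releases formate (Entrez gene 25902), had 26.29 FPKM in the DDX5 shRNA library and 23.02 FPKM in the non-targeting library, a log2 ratio of 0.18. It was the mitochondrial member with the smallest difference. The mRNA of MTHFD2, which acts before it in the chain, exceeded that of MTHFD1L 15.8-fold in the DDX5 shRNA library and 7.83-fold in the non-targeting library. ALDH1L2, which oxidises mitochondrial formyl-tetrahydrofolate to carbon dioxide and yields NADPH (Entrez gene 160428), had 21.51 FPKM in the DDX5 shRNA library and 8.36 FPKM in the non-targeting library. Its 2.57-fold higher level was the second largest ratio of the 9, although it was the least abundant of them in the non-targeting library. Its cytosolic counterpart ALDH1L1 was not analysed here.

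Promoter windows are shown for the MTHFD genes, which lie in both compartments and differed from each other, and for PSAT1, which had the highest ratio. RefSeq windows (build GRCh38.p14, 250 bases before to 50 bases after the annotated start) were present for 6 of 9 members, and those of PSPH, SHMT2 and ALDH1L2 are not shown. Capitals mark the letters TGATGNAA, the core of the composite C/EBP-ATF element bound by ATF4, and CACGTG, the E-box bound by MYC and related factors, searched on both strands. MTHFD1L is the window at chr6:150866236-150866535, MTHFD1 at chr14:64388103-64388402, MTHFD2 at chr2:74198365-74198664 and PSAT1 at chr9:78296875-78297174, all on the plus strand.
MTHFD1L: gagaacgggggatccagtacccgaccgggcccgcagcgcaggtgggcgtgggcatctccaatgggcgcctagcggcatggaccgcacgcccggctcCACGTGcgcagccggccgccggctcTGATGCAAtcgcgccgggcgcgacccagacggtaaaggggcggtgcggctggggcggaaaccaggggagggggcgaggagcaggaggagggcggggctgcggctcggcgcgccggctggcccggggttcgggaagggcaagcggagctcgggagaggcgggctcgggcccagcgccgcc
MTHFD1: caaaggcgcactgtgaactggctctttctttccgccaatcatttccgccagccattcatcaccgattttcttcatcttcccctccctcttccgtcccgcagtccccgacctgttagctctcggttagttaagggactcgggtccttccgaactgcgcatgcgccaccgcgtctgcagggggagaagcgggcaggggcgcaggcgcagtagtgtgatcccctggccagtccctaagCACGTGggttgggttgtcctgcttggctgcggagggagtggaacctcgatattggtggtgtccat
MTHFD2: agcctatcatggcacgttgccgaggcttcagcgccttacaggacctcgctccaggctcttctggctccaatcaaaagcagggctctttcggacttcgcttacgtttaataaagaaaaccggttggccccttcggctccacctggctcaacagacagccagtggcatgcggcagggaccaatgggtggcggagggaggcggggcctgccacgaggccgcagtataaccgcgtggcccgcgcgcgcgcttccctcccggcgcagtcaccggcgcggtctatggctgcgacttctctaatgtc
PSAT1: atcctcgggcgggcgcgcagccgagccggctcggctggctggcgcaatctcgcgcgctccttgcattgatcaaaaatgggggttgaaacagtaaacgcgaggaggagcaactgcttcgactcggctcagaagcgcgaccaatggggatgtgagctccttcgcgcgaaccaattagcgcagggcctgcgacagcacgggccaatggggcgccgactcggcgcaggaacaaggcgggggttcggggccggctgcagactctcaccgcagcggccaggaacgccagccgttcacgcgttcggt

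The MTHFD1L window holds TGATGCAA at bases -129 to -122 and CACGTG at bases -154 to -149 from its start, and the MTHFD1 window holds CACGTG at bases -15 to -10. MTHFD1L has 4 annotated starts, and 3 overlapping windows hold these same bases. From the other two of those starts TGATGCAA lies at bases 25 to 32 and at bases -90 to -83, and the fourth window holds neither set of letters. The windows of MTHFD2, PSAT1, PHGDH and SHMT1 hold neither set of letters, and TGACGNAA, a variant of the element searched after the first result was seen, was in no window of the 6 members. Among 35116 RefSeq windows of the same length, TGATGNAA was in 3.62%, TGACGNAA in 1.66% and CACGTG in 7.26%. These matches describe letters in short windows and do not show binding. ATF4 mRNA itself had 601.83 FPKM in the DDX5 shRNA library and 309.42 FPKM in the non-targeting library, and MYC mRNA had 290.13 FPKM in the DDX5 shRNA library and 176.77 FPKM in the non-targeting library.

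The comparison of compartments was then made over all folate members. The 4 mitochondrial enzymes had a median log2 ratio of 1.10, with a range of 0.18 to 1.27, and all 4 were above 0. Both cytosolic enzymes were below 0, with a median of -0.64. Over all 11413 genes past the filter, 5931 were above 0 and 5455 below, so the sign alone sets few genes apart. The difference between these medians was 1.74 on the log2 scale and lay between 1.55 and 1.76 under every alternative run. Only the pseudocounts and the same total could change it, since every filter kept all members and centring shifts all ratios alike. As summed FPKM, the mitochondrial enzymes held 847.8 FPKM in the DDX5 shRNA library and 404.2 FPKM in the non-targeting library, and the cytosolic enzymes held 89.70 FPKM in the DDX5 shRNA library and 139.3 FPKM in the non-targeting library. The mitochondrial share of the 6 enzymes was 90.4% in the DDX5 shRNA library and 74.4% in the non-targeting library. MTHFD1 made up most of the cytosolic part, with 8.08% of the 6 enzymes in the DDX5 shRNA library and 21.5% in the non-targeting library. Folate genes outside the members did not show the same split by compartment. The 6 other cytosolic folate enzymes past the filter had a median log2 ratio of 0.0015, with 3 above 0 and 3 below. The 4 other mitochondrial folate genes past the filter had a median of -0.11, with 2 above 0 and 2 below.

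**Figure D2:**
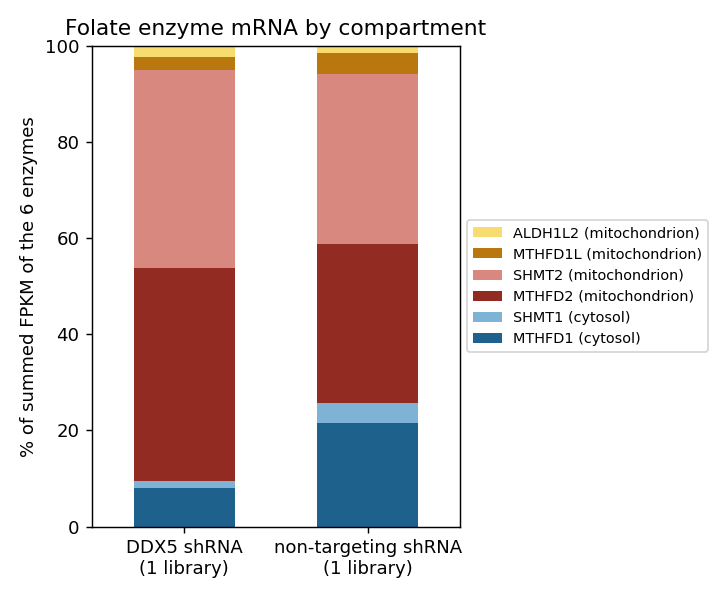
Share of the summed FPKM of the 6 folate enzymes, in percent, stacked by gene, for the DDX5 shRNA library (left bar) and the non-targeting library (right bar). The blue cytosolic part is 9.57% with the DDX5 shRNA and 25.6% with the non-targeting shRNA, and MTHFD2 and SHMT2 fill most of each bar.

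At the estimated depth the members rested on many fragments. SHMT1, with the fewest fragments of the 9 in the DDX5 shRNA library, came to about 531 fragments in the DDX5 shRNA library and 859 in the non-targeting library, which gives exact 95% Poisson intervals of 12.8 to 15.1 FPKM with the DDX5 shRNA and 21.2 to 24.2 FPKM with the non-targeting shRNA. MTHFD1L, the member with the smallest difference, had intervals of 25.0 to 27.7 FPKM in the DDX5 shRNA library and 21.8 to 24.3 FPKM in the non-targeting library. These intervals cover counting error only and say nothing of the spread between cultures. They use the full length of the longest coding transcript, so the fragment numbers may be too high and the intervals too narrow. As a measure of how widely genes of like level differed between these libraries, the robust SD of their log2 ratios was 0.52 for the bin of PSAT1, PHGDH, SHMT2 and MTHFD2 and 0.44 for that of SHMT1.

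**Figure D3:**
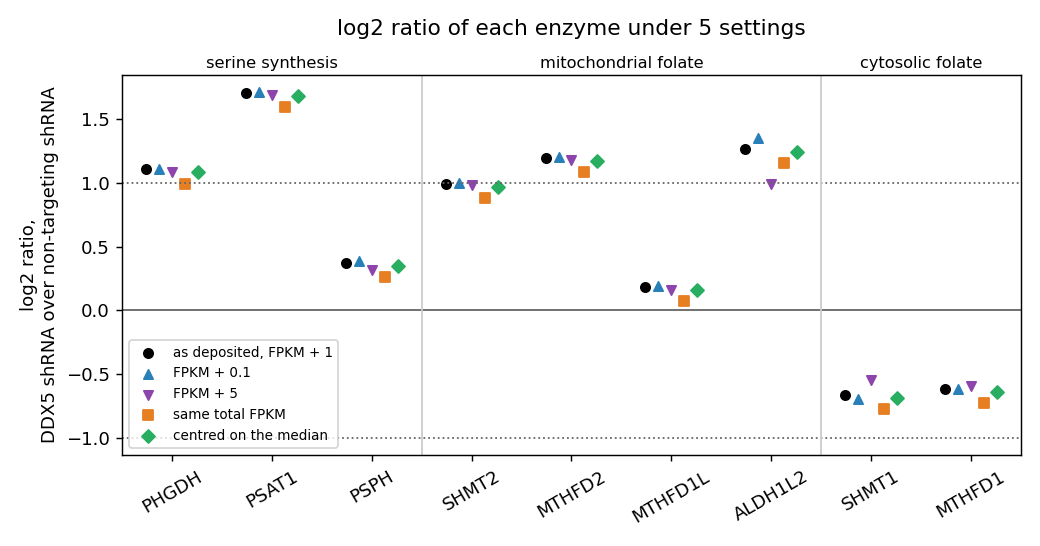
Log2 ratio of each enzyme, DDX5 shRNA over non-targeting shRNA, on FPKM + 1 as deposited (black circles), with pseudocounts of 0.1 and 5, with both libraries at the same total FPKM, and centred on the median of all genes. Dotted lines mark 2-fold. PHGDH, SHMT2 and MTHFD2 lie near the upper line, and ALDH1L2 falls below it only with a pseudocount of 5. SHMT1 and MTHFD1 stay between -0.78 and -0.55, and no enzyme changes sign.

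Shared sequence was small for each member. Between 0% (PHGDH and SHMT2) and 8.92% (PSPH) of the 50-base windows of the longest transcript also occur in transcripts of another gene, among them the pseudogenes PSPHP1, SHMT1P1, MTHFD1P1, MTHFD2P7 and PSAT1P3. MTHFD2 overlaps SLC4A5, a bicarbonate transporter gene on the opposite strand, over 27.2% of its annotated exonic bases. SLC4A5 had 9.68 FPKM in the DDX5 shRNA library and 3.14 FPKM in the non-targeting library. Antisense genes on the opposite strand overlap SHMT2 (AC137834.2, 8.83% of its exonic bases) and MTHFD1 (AL122035.2, 8.06%), and neither has a value here. The strand setting is not given, so reads from shared bases cannot be told apart. Both SLC4A5 values are far below those of MTHFD2, but they face the same limit, and the part of these overlaps was not tested.

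Other folate genes, a list that includes cytosolic enzymes and uptake genes, did not follow the mitochondrial members. Members and lists were chosen with earlier results of these data known, so this contrast is descriptive only. Of 22 folate enzymes and carriers outside the 9 that were analysed, 17 passed the filter, 0 were at least 2-fold apart (1 at the same total, TYMS), and 6 lay above 0 and 11 below, with a median of -0.17. Over all genes 4.19% were 2-fold higher and 2.26% lower, so a count of 0 is near the general share. By sign, 5931 of all 11413 genes lay above 0 and 5455 below. TYMS, which makes thymidylate from methylene-tetrahydrofolate, had 118.18 FPKM in the DDX5 shRNA library and 231.22 FPKM in the non-targeting library, a log2 ratio of -0.96 that became -1.08 at the same total. Its ratio had the same sign as those of SHMT1 and MTHFD1.

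Purine synthesis enzymes that use formyl-tetrahydrofolate differed little. GART had 92.68 FPKM in the DDX5 shRNA library and 86.15 FPKM in the non-targeting library, a log2 ratio of 0.10 that turned to -0.0096 at the same total. The genes of the methyl group branch, which rebuilds methionine, had 5 members past the filter, none 2-fold apart, where 4.19% of all genes were 2-fold higher and 2.26% lower. Their log2 ratios were 0.20 for the methionine synthase gene MTR, 0.11 for its reductase MTRR (-0.00088 at the same total) and -0.24 for AHCY, which splits S-adenosylhomocysteine.

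Mitochondrial carriers and partners of these enzymes lay on both sides of 0, and none was 2-fold apart, like most genes (10677 of 11413). SLC25A32, the mitochondrial folate carrier, had 8.55 FPKM in the DDX5 shRNA library and 11.95 FPKM in the non-targeting library. SLC25A38, the mitochondrial glycine carrier, had 17.18 FPKM in the DDX5 shRNA library and 11.5 FPKM in the non-targeting library, a log2 ratio of 0.54. SFXN1, a mitochondrial serine carrier chosen after its value was seen, had 33.32 FPKM in the DDX5 shRNA library and 47.48 FPKM in the non-targeting library. MTFMT, which formylates the mitochondrial initiator tRNA, had 5.77 FPKM in the DDX5 shRNA library and 8.5 FPKM in the non-targeting library. In the glycine cleavage system, which breaks down glycine in mitochondria, GCSH had a log2 ratio of -0.18 and DLD, a subunit shared with other dehydrogenase complexes, -0.23, while GLDC, the decarboxylase that defines the system, was at 0.15 FPKM in the DDX5 shRNA library and 0.17 FPKM in the non-targeting library (chosen after its value was seen).

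Folate uptake genes had 5 members past the filter and none 2-fold apart, where 4.19% of all genes were 2-fold higher and 2.26% lower. FOLR1, a folate receptor, had 26.82 FPKM in the DDX5 shRNA library and 19.08 FPKM in the non-targeting library. SLC19A1, the reduced folate carrier, had 12.28 FPKM in the DDX5 shRNA library and 17.62 FPKM in the non-targeting library. GGH, which removes glutamates from stored folate, had 22.39 FPKM in the DDX5 shRNA library and 32.74 FPKM in the non-targeting library. The receptor was thus higher, and the carrier and GGH lower, with the DDX5 shRNA.

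Several plasma membrane carriers of serine and glycine were higher in the DDX5 shRNA library, as the synthesis enzymes were. Of 9 analysed serine and glycine carriers, 4 were at least 2-fold higher on FPKM + 1 and 0 were 2-fold lower, with a median of 0.57. Over all genes the shares were 4.19% higher and 2.26% lower, and the list was chosen with earlier results of these data known. At the same total 3 of the carriers were 2-fold higher, without SLC38A2. SLC1A4, a neutral amino acid exchanger that carries serine, had 27.78 FPKM in the DDX5 shRNA library and 3.88 FPKM in the non-targeting library, 7.16-fold higher. SLC6A9, the glycine transporter GlyT1, had 56.24 FPKM in the DDX5 shRNA library and 11.16 FPKM in the non-targeting library. The exchanger SLC1A5 and the neutral amino acid transporter SLC38A2 had log2 ratios of 1.27 and 1.10, and SFXN2, of the mitochondrial sideroflexin family, -0.72.

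Enzymes that use serine or glycine had 9 members past the filter, of which 2 were at least 2-fold higher (4.19% of all genes) and 0 were 2-fold lower (2.26% of all genes). Neither passed the 2-fold line with a pseudocount of 5, and both are under an average of 5 FPKM. SDSL, a serine dehydratase-like enzyme, had 6.41 FPKM in the DDX5 shRNA library and 1.21 FPKM in the non-targeting library, and SRR, the serine racemase, had 5.96 FPKM in the DDX5 shRNA library and 1.7 FPKM in the non-targeting library. PTDSS1, which makes phosphatidylserine, was lower, at 39.89 FPKM in the DDX5 shRNA library and 69.84 FPKM in the non-targeting library. The glutathione synthetase gene GSS had a log2 ratio of 0.31, and SPTLC2, a subunit of the enzyme that begins sphingolipid synthesis from serine, -0.39.

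**Figure D4:**
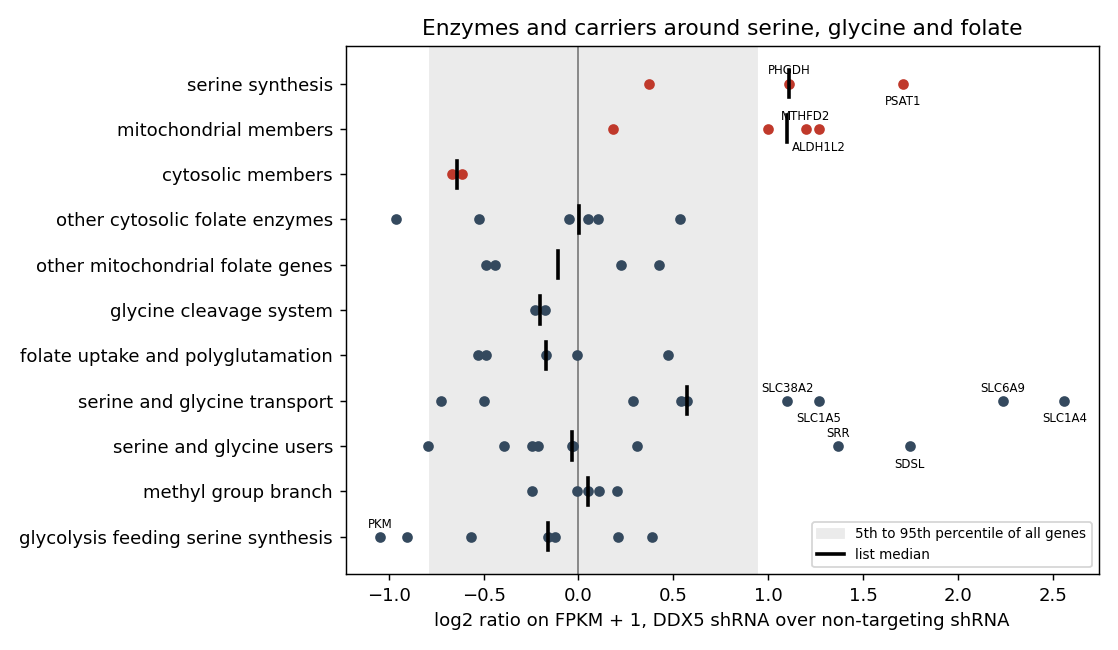
Log2 ratios on FPKM + 1, DDX5 shRNA over non-targeting shRNA, for the members (red) and for neighbouring lists (dark blue), with 1 point per gene that averaged at least 1 FPKM and a black bar at each list's median. The grey band runs from -0.78 to 0.94, the 5th to 95th percentile of all genes; PSAT1, PHGDH, SHMT2, MTHFD2 and ALDH1L2 lie to its right, as do 4 carriers, SDSL and SRR. Both cytosolic members lie within it, and TYMS, PTDSS1, PKM and PGAM5 lie to its left.

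In the same rank of ratios over 8545 genes, 2.42% of genes had a higher ratio than MTHFD2 and 3.86% a higher ratio than SHMT2. For MTHFD1L, also above 0, the share was 35.1%. At the other end, 8.32% had a lower ratio than SHMT1 and 9.82% a lower ratio than MTHFD1. Thus the cytosolic members stood less far out among all genes than the leading mitochondrial members. With 1 ratio per gene, likeness of pattern is only nearness in this rank. The genes next to MTHFD2 were FOXD1 and SDC3 above it and CARS1 and DTD1 below it.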

How the data were processed

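RNA was sequenced from HGC-27 cells with a DDX5 shRNA or a non-targeting shRNA, 1 library each. The authors deposited FPKM for both libraries in 1 table with 2 decimals, per the file headers. Per the submitters' processing notes the tools were RSEM 1.2.8, HISAT and Bowtie2 and the build was hg19, with no role or order stated. Of annotation, strand and filters, nothing is given in the sources used here. Columns were assigned by sample titles.

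RefSeq names (GRCh38.p14) matched 15289 of 16021 rows. Libraries were compared as log2 of FPKM + 1 in the DDX5 shRNA library minus that in the non-targeting library, a scale that shrinks differences of low genes. Folds given for single genes are ratios of deposited FPKM. Counts and medians used genes that averaged at least 1 FPKM, and 2-fold apart means a log2 ratio at or beyond 1 in either direction. No test was run. Robust SDs came from 20 bins of mean expression. Transcript lengths, shared 50-base windows (every 10 bases) and overlaps came from GENCODE v29.

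Depth is not stated. At the tolerance given next, part of the matches would arise without a true step, and that part was not measured. In short genes that have a single transcript, the product of FPKM and length (less 150 bases) fell within 0.15 of a whole step for 65.7% of 102 genes (DDX5 shRNA) and 67.0% of 112 genes (non-targeting shRNA), at steps chosen for the best match to the same genes, so fragment numbers are estimates.

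Members and lists were chosen with earlier results of these data known. Names follow a rule: all members, DDX5, ATF4 and MYC, list genes 2-fold apart and up to 3 others per list with the largest absolute ratio at a mean of 5 FPKM or more, and 6 further folate genes; other names are marked. A few of the named items are not reported here. Marker genes and genes overlapping a member serve stated checks. The calling of 2-fold genes was tried on simulated data with planted differences larger than that of any member. It therefore does not show how differences near 2-fold are recovered. Software was pandas 2.3.3 and numpy 2.4.6 under Python 3.11.15, with scipy 1.17.1 for intervals and matplotlib 3.10.9 for plots.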

Additional observations from a re-analysis of the deposited data

How the results depend on the processing

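Results were recomputed with the filter dropped or raised to an average of 5 FPKM, with a pseudocount of 0.1 or 5, with libraries at the same total FPKM, and with ratios centred on the median. All 9 members kept the sign of their log2 ratio under each. Dropping or raising the filter could not alter the members, which all averaged above 5 FPKM. Centring subtracts the same small constant from every ratio. The number of members at least 2-fold higher was 4, or 3 with a pseudocount of 5 (without ALDH1L2, at 0.9886) and 3 at the same total (without PHGDH), and 0 were 2-fold lower under each. Over all 11413 genes, 478 were 2-fold higher and 258 lower in the main setting. These counts were 194 and 102 with a pseudocount of 5, and 743 and 390 with 0.1. At the same total they were 376 and 380 of 11409 genes. The median log2 ratio ranged from 0.98 to 1.10 for the mitochondrial members, from -0.75 to -0.57 for the cytosolic members and from 0.9945 to 1.11 for serine synthesis. The change in the SHMT2 to SHMT1 ratio was 3.26, or 3.17 with 1 FPKM added to each gene. At the same total, log2 ratios of abundant genes shifted by about -0.12 and those of low genes by less, and the median of all genes was -0.078, against 0.024 as deposited. Of the enzymes that use serine or glycine, 2 were at least 2-fold higher, and 0 with a pseudocount of 5 or with the filter at 5 FPKM. Among the other lists, the median of the mitochondrial folate genes outside the members moved from -0.11 to -0.46 with the filter at 5 FPKM, which left fewer genes. No paired analysis was possible because each condition has 1 library, and for the same reason no replicate could be left out. Genes with low FPKM, such as MTHFD2L at 2.47 FPKM in the DDX5 shRNA library and 1.97 FPKM in the non-targeting library, rest on fewer fragments for their length.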

Other observations

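Glycolytic enzymes around 3-phosphoglycerate, the precursor of serine, were set beside the members, together with PGAM5, which is not a glycolytic enzyme. Of 7 genes, 0 were at least 2-fold higher and 1 was 2-fold lower on FPKM + 1, with a median log2 ratio of -0.16. Over all genes the shares were 4.19% higher and 2.26% lower. PKM, the pyruvate kinase that ends glycolysis, had 345.98 FPKM in the DDX5 shRNA library and 715.81 FPKM in the non-targeting library, a log2 ratio of -1.05. PGAM1, the mutase that takes 3-phosphoglycerate onward in glycolysis, had 404.57 FPKM in the DDX5 shRNA library and 599.32 FPKM in the non-targeting library. PGAM5, a mitochondrial phosphatase of the same family, had 13.82 FPKM in the DDX5 shRNA library and 26.71 FPKM in the non-targeting library. Its log2 ratio at the same total, -1.01, also passed the 2-fold line. The neuronal enolase gene ENO2 had 11.79 FPKM in the DDX5 shRNA library and 8.76 FPKM in the non-targeting library. PHGDH mRNA, at the branch point, had a log2 ratio of 1.11, and that of PGAM1, which draws on the same metabolite, was -0.57.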
